A study of Mus musculus with 6 samples.

Results

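The NCOR-HDAC3 corepressor complex is a set of nuclear proteins that silences genes. The subunits described here were taken from the gene tables by symbol, namely Ncor1, Hdac3, Tbl1x, Tbl1xr1, Gps2 and Coro2a, together with the transcripts that carry their gene identifiers. All 6 were found among the 17891 genes listed with a symbol in any sample, and all 6 passed the filter on low counts. RNA sequencing had been done on myocardium, the heart muscle, of 6-week-old C57BL/6 mice, in 3 samples of wild type (WT) mice and 3 of NS-DADm mice. The NS-DADm genotype holds, in the whole body, knock-in mutations of the deacetylase-activating domains (DADs) of nuclear receptor corepressors, NCOR among them, and the labels record no other allele and no treatment. By the labels, both groups share strain, age and tissue. The labels do not say whether samples were separate mice or pooled ones, so p-values measure only the spread between these samples.

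NCOR, the product of Ncor1, is a large scaffold that binds nuclear receptors and other DNA-bound factors when no activating ligand is present. Its DAD holds the deacetylase HDAC3 and switches on its enzyme activity, for which an inositol phosphate sits between both proteins. TBL1X and TBLR1, the products of the paralogs Tbl1x and Tbl1xr1, are WD40-repeat subunits that bind histone tails and take part in exchanging corepressors for coactivators. GPS2 is a small subunit that joins the scaffold and the TBL1X-type proteins, and the coronin CORO2A is a further component. In heart muscle HDAC3 is known for its control of lipid metabolism genes.

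Of the 6 subunits, 1 was called at the level of the gene, at an adjusted p under 0.05, beside 3.20% of all tested genes. This was Tbl1xr1, which rose 1.82-fold in NS-DADm myocardium. The DAD mutations fall in a protein whose transcript, Ncor1, was at 22.9 ± 1.15 FPKM in WT and 24.3 ± 1.01 FPKM in NS-DADm samples (mean ± SD, n = 3), and the enzyme transcript, Hdac3, was at 29.8 FPKM in both groups. FPKM is the authors' count per kilobase of transcript, scaled to library size. A knock-in at the DAD cannot be read from the level of a gene, so these values do not check the genotype.

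Total expected counts per sample ran from 10183792 to 11205221 in WT and from 12262523 to 12758311 in NS-DADm, so all NS-DADm libraries were deeper. For a feature of 1 kilobase, 3 counts corresponded to 0.235 to 0.295 FPKM. The label of the tissue was checked against 10 cardiomyocyte markers, none of them at 0 in any sample, whose summed level was 56800 to 65500 FPKM. Summed atrial markers separated the libraries across both groups: WT 3, NS-DADm 1 and NS-DADm 3 had 3760 to 6570 FPKM, and WT 1, WT 2 and NS-DADm 2 had 286 to 586 FPKM. In the gene fit, edgeR called 420 of 13130 tested genes, 235 higher and 185 lower in NS-DADm, and 2370 of the 13130 had an unadjusted p under 0.05.

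The promoters of the WD40 paralogs are shown first, because these were the subunits whose WT and NS-DADm levels did not overlap. Each is the RefSeq window of 250 bases before to 50 bases after the annotated start on GRCm38.p6. In the GENCODE annotation of GRCm38, the models of the listed transcripts start 75 (Tbl1xr1) and 214 (Tbl1x) bases from these starts. Capitals mark each copy of CCCCTCCC in Tbl1xr1 and the single GGGCGG, the GC box, in Tbl1x, on either strand. Tbl1xr1 also holds 1 GC box, which is left in lower case. The Tbl1xr1 window is chr3:22076402-22076701 on the plus strand.
Tbl1xr1: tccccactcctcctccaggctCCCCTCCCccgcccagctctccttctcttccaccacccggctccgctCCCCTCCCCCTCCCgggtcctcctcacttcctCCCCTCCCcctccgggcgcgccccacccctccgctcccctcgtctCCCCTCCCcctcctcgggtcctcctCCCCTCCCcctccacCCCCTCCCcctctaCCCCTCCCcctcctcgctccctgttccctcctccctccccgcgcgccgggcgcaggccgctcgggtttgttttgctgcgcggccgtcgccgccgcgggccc
The Tbl1x window is chrX:77510977-77511276 on the plus strand.
Tbl1x: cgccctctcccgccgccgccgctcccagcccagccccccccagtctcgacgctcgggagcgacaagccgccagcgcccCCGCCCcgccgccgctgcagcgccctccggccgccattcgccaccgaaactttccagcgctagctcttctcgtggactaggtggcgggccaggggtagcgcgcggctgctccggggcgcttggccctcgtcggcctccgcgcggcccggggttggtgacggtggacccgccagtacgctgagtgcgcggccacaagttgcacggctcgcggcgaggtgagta
Both windows were rich in G and C, at 76.3% in Tbl1xr1 and 75.3% in Tbl1x. They differed in strand composition: C and T made up 80.7% of the Tbl1xr1 window as printed and 55.7% of the Tbl1x window, and 7 of 32851 promoters reached at least the Tbl1xr1 value. CCCCTCCC, a run chosen after the sequence had been seen and counted on both strands with overlaps, was present 8 times in Tbl1xr1 and 0 times in Tbl1x. It was found in 12.2% of the 32851 promoters, and Tbl1xr1 was the only 1 with as many copies. GGGCGG was found in 35.7% of promoters. AGGTCA, a binding sequence of nuclear receptors, was absent from the windows of all 5 subunits matched to the RefSeq promoter table (16.3% of all promoters held it), Hdac3 not being among them. These matches describe the letters of the windows and nothing more.

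Tbl1xr1 encodes TBLR1. The WT samples 1 to 3 had 7.0, 6.5 and 6.91 FPKM, against 12.06, 11.54 and 13.04 FPKM in NS-DADm 1 to 3. Every NS-DADm sample was above every WT sample, with a wide gap between the groups and little spread within them. The mean was 6.8 ± 0.267 FPKM in WT and 12.2 ± 0.762 FPKM in NS-DADm, a log2 fold change of 0.87 (SE 0.07, 95% interval 0.72 to 1.01). The adjusted p was 0.000164 in edgeR's quasi-likelihood test, and 9 of the tested genes had a smaller p. By size the rise was the 76th of the 235 genes called higher. The log2 difference was 0.81 within the libraries of low atrial transcripts (2 WT, 1 NS-DADm) and 0.88 within those of high atrial transcripts (1 WT, 2 NS-DADm), and with an atrial score in the model the log2 fold change was 0.84 (adjusted p = 0.000125).

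Tbl1x encodes TBL1X, the paralog with the same place in the complex. It stood at 9.95, 9.42 and 10.64 FPKM in WT 1 to 3, against 13.61, 11.19 and 11.45 FPKM in NS-DADm 1 to 3. The groups did not overlap, but the lowest NS-DADm sample lay close to the highest WT sample, and NS-DADm 1 stood above the rest. The SD was 0.612 FPKM in WT and 1.33 FPKM in NS-DADm, and the log2 fold change was 0.30 (SE 0.10, 95% interval 0.08 to 0.51), or 1.23-fold. The unadjusted p in edgeR was 0.0113, and the adjusted p of 0.134 did not pass the threshold of 0.05. Within libraries of low and of high atrial transcripts the log2 difference was 0.25 in both.

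Of the 6 subunits, 1 was therefore called, in the direction of higher in NS-DADm. Over all tested genes, 3.20% were called in either direction and 1.79% were called higher. An unadjusted p under 0.05 was reached by 2 of the 6 subunits and by 2370 of 13130 tested genes. The FPKM of the groups did not overlap, with NS-DADm higher, in 2 subunits (Tbl1x and Tbl1xr1), against 8.94% of all tested genes. All 6 log2 fold changes were positive, with a median of 0.2, beside a median of -0.003 and 49.3% positive over all tested genes.

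**Figure D1:**
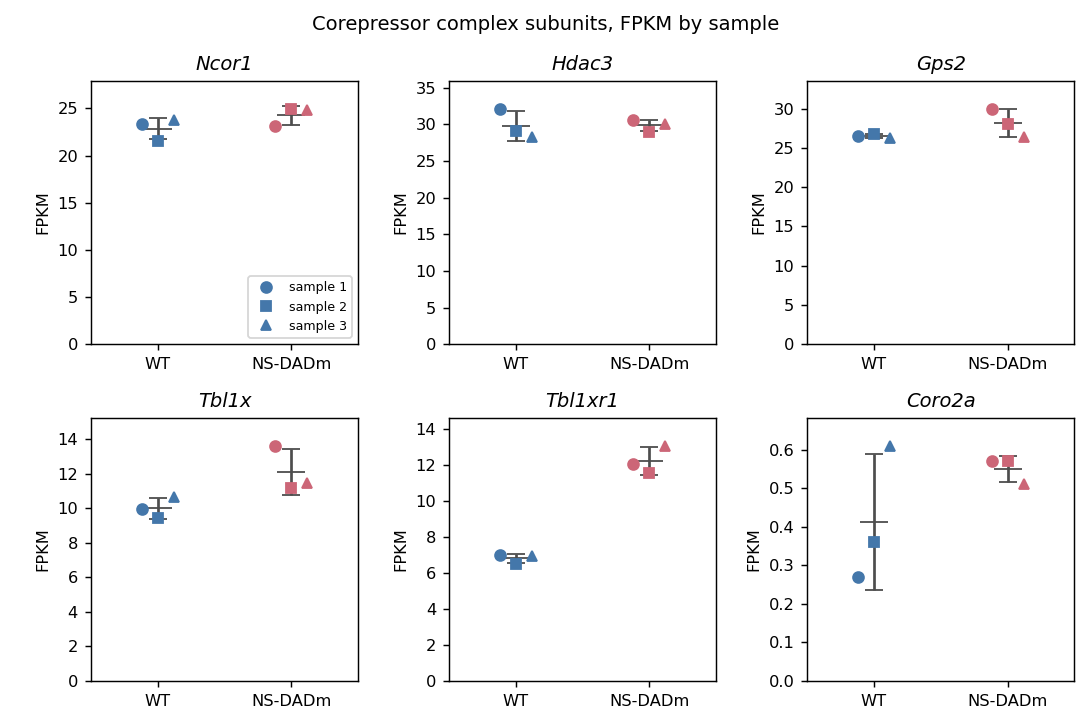
FPKM of each subunit (vertical axes, linear and starting at 0) in the 3 WT and 3 NS-DADm samples, with points for samples and bars for mean ± SD. Tbl1xr1 is at 6.5 to 7.0 in WT and 11.54 to 13.04 in NS-DADm, while Ncor1, Hdac3, Gps2 and Coro2a overlap between groups.

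Ncor1 encodes the scaffold itself. Its transcripts reached 23.3, 21.55 and 23.73 FPKM in WT 1 to 3, against 23.13, 24.91 and 24.84 FPKM in NS-DADm 1 to 3. The groups overlapped, since NS-DADm 1 lay below WT 1 and WT 3. The log2 fold change was 0.10 (SE 0.06, adjusted p = 0.432). Its 95% interval in linear terms ran from 0.975-fold to 1.18-fold.

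Hdac3 encodes the catalytic subunit. The WT samples 1 to 3 had 32.05, 29.02 and 28.21 FPKM, against 30.57, 28.98 and 29.98 FPKM in NS-DADm 1 to 3. The NS-DADm samples all lay inside the WT range. The log2 fold change was 0.03 (SE 0.07, adjusted p = 0.884), with a 95% interval of 0.911-fold to 1.14-fold.

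Gps2 encodes the small linking subunit. The WT samples 1 to 3 had 26.51, 26.76 and 26.19 FPKM, against 29.91, 28.08 and 26.39 FPKM in NS-DADm 1 to 3. NS-DADm 1 and 2 were above all WT samples, whereas NS-DADm 3 lay among them. The log2 fold change was 0.11 (SE 0.08, adjusted p = 0.493), with a 95% interval of 0.958-fold to 1.22-fold.

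Coro2a encodes the coronin subunit and was the lowest of the set. The WT samples 1 to 3 had 0.27, 0.36 and 0.61 FPKM, against 0.57, 0.57 and 0.51 FPKM in NS-DADm 1 to 3, from 11, 14 and 26 and from 27, 28 and 24 expected counts. WT 3 was the highest of all samples, so the groups overlapped. The log2 fold change of 0.44 had an SE of 0.32 (adjusted p = 0.523), and at these low counts the 95% interval was wide, from 0.824-fold to 2.23-fold. Without WT 3 it was 0.83 (adjusted p = 0.226), and within the libraries of high atrial transcripts it was -0.13.

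**Figure D2:**
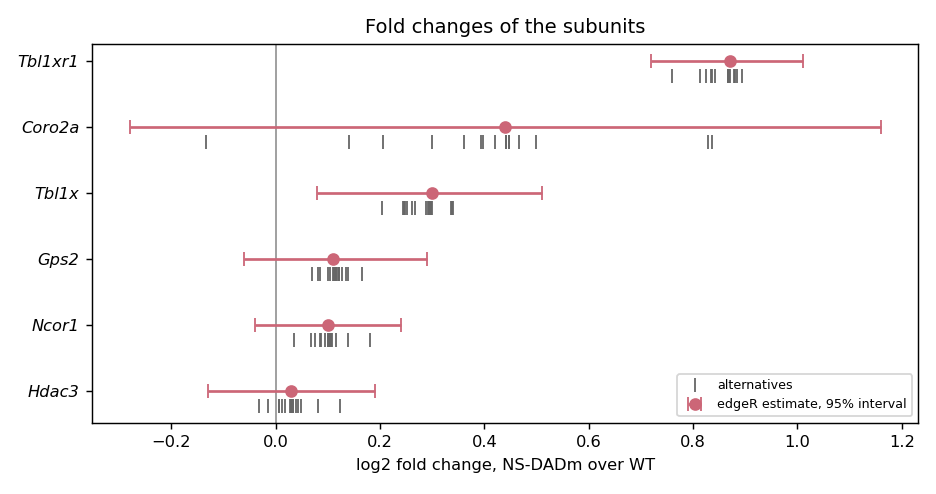
Log2 fold change of each subunit, NS-DADm over WT, from the edgeR fit, with 95% intervals. Tbl1xr1 is at 0.87 with an interval of 0.72 to 1.01, Tbl1x at 0.30 with 0.08 to 0.51, and the intervals of the other 4 include 0.

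The order of the subunits per length was the same in all WT samples and in NS-DADm 1. Hdac3 came first, followed by Gps2, Ncor1, Tbl1x, Tbl1xr1 and Coro2a. In NS-DADm 2 and 3 Tbl1xr1 stood above Tbl1x. Of the summed FPKM of the 6 subunits, Tbl1xr1 made up 7.06 ± 0.116% in WT and 11.4 ± 0.755% in NS-DADm samples. The share of Hdac3 was 30.9 ± 1.53% in WT and 27.9 ± 0.35% in NS-DADm, that of Gps2 27.5 ± 0.955% and 26.2 ± 1.25%, and that of Ncor1 23.7 ± 0.832% and 22.7 ± 1.43%. The share of Tbl1x was 10.4 ± 0.576% and 11.3 ± 0.975%, and that of Coro2a 0.43 ± 0.185% and 0.514 ± 0.031%. Shares add up to the whole, so they are not independent of each other. The order and the shares also rest on the deposited transcript lengths, which for Tbl1x and Tbl1xr1 differ from those of the GENCODE models (given below).

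The balance between the WD40 paralogs was taken as the ratio of Tbl1xr1 to Tbl1x FPKM in each sample. In WT 1 to 3 the ratio was 0.704, 0.69 and 0.649, against 0.886, 1.03 and 1.14 in NS-DADm 1 to 3. Every NS-DADm ratio was above every WT ratio, and in NS-DADm 2 and 3 Tbl1xr1 was the higher paralog by FPKM. FPKM depends on transcript length, deposited as 8127 bases for Tbl1xr1 and 2302 bases for Tbl1x. The GENCODE models of the same transcripts have 4209 and 5234 bases. Which paralog is more abundant, and the weight of each in their sum, therefore depend on the length used. The fold difference of the ratio between groups does not. The mean log2 ratio was higher by 0.57 in NS-DADm, or 1.49-fold, with a two-sided exact permutation p of 0.1, the smallest that 3 samples against 3 allow. Of the 12 expected counts of this pair, 11 were whole numbers to 2 decimals, as they are when no read is divided between genes.

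The summed level of both paralogs was 16.9, 15.9 and 17.6 FPKM in WT 1 to 3, against 25.7, 22.7 and 24.5 FPKM in NS-DADm 1 to 3. Set against Hdac3, the sum was 0.529, 0.549 and 0.622 in WT, against 0.84, 0.784 and 0.817 in NS-DADm. The ratio of Hdac3 to Ncor1, the enzyme to its scaffold, was 1.38, 1.35 and 1.19 in WT, against 1.32, 1.16 and 1.21 in NS-DADm. Of these ratios, the one of enzyme to scaffold overlapped between the groups and the one of summed WD40 subunits to Hdac3 did not. Both were chosen after the gene values had been seen and are given without a test.

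**Figure D3:**
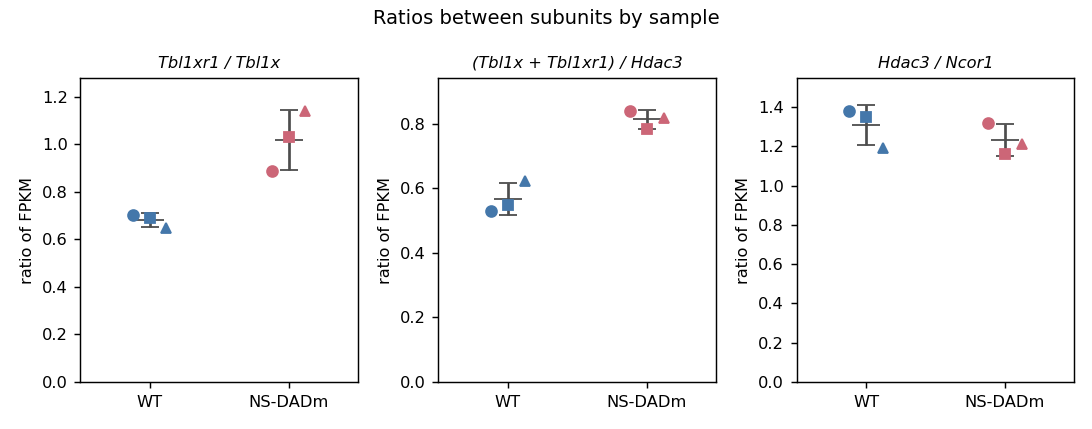
Ratios of FPKM between subunits in each sample, with points for samples and bars for mean ± SD. The ratio of Tbl1xr1 to Tbl1x is 0.649 to 0.704 in WT and 0.886 to 1.14 in NS-DADm, while Hdac3 to Ncor1 overlaps between groups.

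Transcripts were examined next. Hdac3, Tbl1x, Tbl1xr1, Gps2 and Coro2a each had 1 listed transcript, so their transcript values repeat the gene values. In the transcript fit, which called 0.0972% of 17497 transcripts, 1 subunit transcript passed, that of Tbl1xr1 (NM_030732, log2 fold change 0.87, adjusted p = 0.0203). Its call was lost without any 1 sample, with adjusted p-values of 0.0776 to 0.165, and with a replicate block (adjusted p = 0.297), while the fold change stayed between 0.83 and 0.89.

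Ncor1 was the subunit with several listed transcripts. NM_001252313 and NM_011308 are long models of 45 exons with coding regions of 2454 and 2386 codons, and NM_177229 is a short model of 9 exons with 291 codons. The first 845 coding bases of the short model equal those of the longest, through codon 281, so the short model lacks the later part of the protein. In the GENCODE annotation of GRCm38 the long models start 0 and 34 bases from the start in the downstream of 2 RefSeq promoters of Ncor1, and the short model starts 9 bases from that in the upstream one. Both windows are given on the minus strand of GRCm38.p6, with GGGCGG on either strand in capitals.
Ncor1 downstream, chr11:62438466-62438765: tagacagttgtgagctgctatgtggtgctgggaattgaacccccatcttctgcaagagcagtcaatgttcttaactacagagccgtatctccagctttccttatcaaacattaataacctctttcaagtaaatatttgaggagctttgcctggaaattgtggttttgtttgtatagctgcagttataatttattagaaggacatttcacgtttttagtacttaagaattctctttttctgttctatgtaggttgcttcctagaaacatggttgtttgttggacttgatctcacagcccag
Ncor1 upstream, chr11:62457283-62457582: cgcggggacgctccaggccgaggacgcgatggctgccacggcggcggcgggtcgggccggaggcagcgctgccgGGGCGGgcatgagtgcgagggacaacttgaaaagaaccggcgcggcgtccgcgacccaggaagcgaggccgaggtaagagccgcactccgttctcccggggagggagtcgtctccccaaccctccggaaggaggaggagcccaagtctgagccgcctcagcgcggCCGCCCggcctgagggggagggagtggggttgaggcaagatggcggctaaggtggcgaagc
The downstream window, nearest the starts of the long models, had a GC content of 38.3% and no GC box. The upstream window, nearest the start of the short model, had a GC content of 72.3% and 2 GC boxes.

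NM_001252313 held 54.0, 58.4 and 63.9% of the Ncor1 counts in WT 1 to 3, against 56.7, 61.0 and 63.1% in NS-DADm 1 to 3. NM_011308 held 41.0, 37.8 and 31.0% in WT, against 38.2, 34.0 and 31.6% in NS-DADm. NM_177229 held 4.93, 3.85 and 5.09% in WT, against 5.07, 4.97 and 5.26% in NS-DADm. The shares of all 3 models overlapped between groups, with exact permutation p-values of 0.8, 0.8 and 0.3. In the test of transcript usage, which called 0.703% of 2989 genes with at least 2 tested transcripts, Ncor1 was not called (unadjusted p = 0.812, adjusted p = 1). The long models share most exons, and the counts divide reads among them by estimation, so their separate levels are less certain than the gene's.

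**Figure D4:**
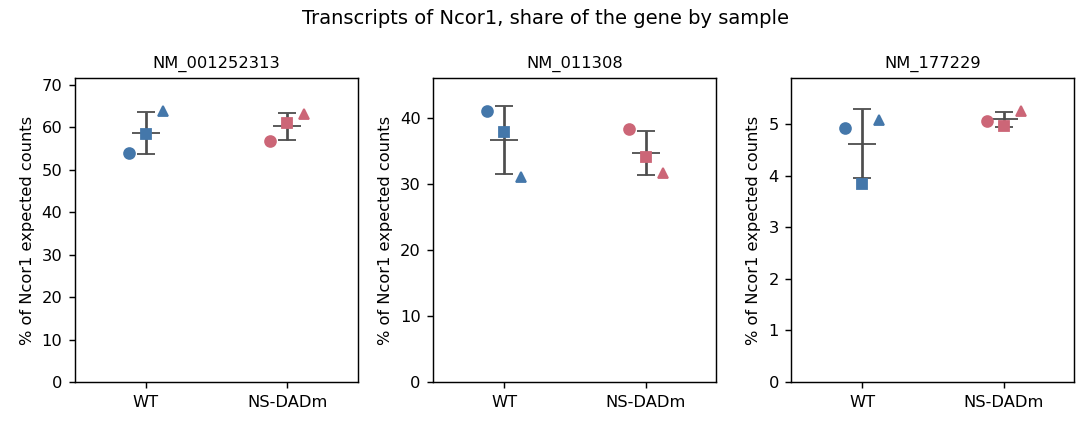
Share of the Ncor1 expected counts held by each of 3 listed transcripts, in percent, in each sample, with bars for mean ± SD. All 3 overlap between WT and NS-DADm, and the short model NM_177229 stays between 3.85 and 5.26%.

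The genes that work beside the complex were taken as 12 lists by function. Among the deacetylases, none of the 3 other class I members was called (1 at an unadjusted p under 0.05, 0 called by DESeq2). The most abundant of them, Hdac2, was at 35.5 ± 0.897 FPKM in WT and 29.0 ± 1.98 FPKM in NS-DADm (log2 fold change -0.27, adjusted p = 0.0907). Of the 4 class IIa deacetylases, which bind HDAC3 and NCOR, 1 was called, beside 3.20% of all tested genes. An unadjusted p under 0.05 was reached by 2, Hdac4 and Hdac9. Hdac4 was higher in NS-DADm and not called (log2 fold change 0.35, adjusted p = 0.0956). Hdac9 fell from 7.06 ± 0.195 to 4.87 ± 0.552 FPKM (log2 fold change -0.51, adjusted p = 0.0155). Its call was lost without WT 2 (adjusted p = 0.0706) or NS-DADm 1 (0.053), and Hdac5, the most abundant, was at 29.2 FPKM in WT and 28.0 FPKM in NS-DADm (log2 fold change -0.03).

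Of 27 nuclear receptors that recruit NCOR, 2 rose and 0 fell, beside 1.79% called higher over all tested genes, with a median log2 fold change of 0.02. DESeq2 called 3 of them, beside 539 over all genes. Of the 27, 6 had an unadjusted p under 0.05, beside 2370 of 13130 tested genes. The 2 that rose encode receptors for fatty acids. Ppara was at 19.2 ± 1.27 FPKM in WT and 25.3 ± 1.83 FPKM in NS-DADm (log2 fold change 0.42, adjusted p = 0.0191). Ppard was at 15.5 ± 1.0 and 19.0 ± 0.702 FPKM (0.31, adjusted p = 0.0483). The call of Ppara was lost when NS-DADm 1 or 2, or WT 1 or 2, was left out (adjusted p at most 0.103), and that of Ppard when any 1 sample was left out (at most 0.197) or the atrial score was a covariate (0.0881). Of 20 other factors that recruit the complex, 1 was called, beside 3.20% of all tested genes, and 3 had an unadjusted p under 0.05. Bcl6, a repressor that binds the corepressor directly, rose from 7.18 ± 1.01 to 11.1 ± 1.89 FPKM (log2 fold change 0.65, adjusted p = 0.0324). Its call was lost when NS-DADm 1 or 2, or WT 2 or 3, was left out (adjusted p at most 0.139). The most abundant of these lists, Esrra and Mef2a, had log2 fold changes of 0.11 and -0.12 and were not called. Under limma, with pseudocounts of 1 and 0.1 FPKM in turn, the calls of Hdac9 (adjusted p = 0.0547 and 0.0528), Ppara (0.0557 and 0.0553), Ppard (0.1 in both) and Bcl6 (0.0859 and 0.0837) were also lost.

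The coronin family, to which Coro2a belongs, had 7 tested members and 0 called by edgeR or DESeq2, with 2 at an unadjusted p under 0.05. Coro6 was the most abundant at 104 FPKM in WT and 111 FPKM in NS-DADm. No gene was called by edgeR in the TRiC chaperonin that folds HDAC3 (8 tested, 0 at an unadjusted p under 0.05) or among the CK2 and PP4 subunits that set HDAC3 phosphorylation (6 tested, 0). The same held for the 5 tested of 6 listed kinases that make inositol phosphates (0 at an unadjusted p under 0.05). DESeq2 also called 0 genes in these 3 lists. The list of inositol phosphate kinases is not complete. Outside it, edgeR called Ip6k3 (log2 fold change 0.83, adjusted p = 0.00224) and Ppip5k1 (0.55, adjusted p = 0.00236), both higher in NS-DADm. Of 8 genes of corepressor exchange and ubiquitin transfer, edgeR called 0, 2 had an unadjusted p under 0.05 and DESeq2 called 1.

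Other chromatin complexes were set beside the NCOR complex. EdgeR and DESeq2 called 0 of 14 nuclear receptor coactivators (1 at an unadjusted p under 0.05), 0 of 15 SIN3 complex genes (1) and 0 of 10 CoREST complex genes (3), beside the 2370 of 13130 tested genes at that level. The CoREST genes, which work with other class I deacetylases, had 1 positive log2 fold change of 10 and a median of -0.13. The medians of the coactivators and of the SIN3 genes were 0.03 and -0.01. The coactivator gene at an unadjusted p under 0.05 was Ppargc1a, at 26.7 ± 4.01 FPKM in WT and 46.7 ± 14.4 FPKM in NS-DADm. Its log2 fold change was 0.83 (adjusted p = 0.0529).

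**Figure D5:**
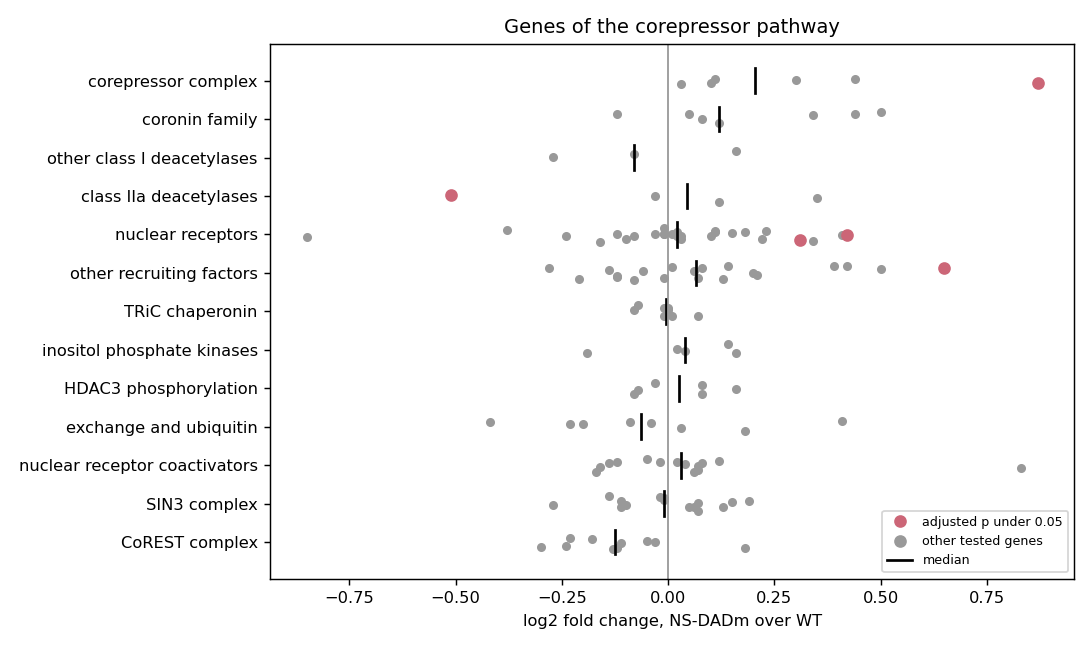
Log2 fold change, NS-DADm over WT, of the genes in each functional list, with 1 point a gene, beside the median of each list. Tbl1xr1 is the point at 0.87 among the 6 subunits, and the medians of the other lists lie between -0.13 and 0.12.

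In bulk tissue, fewer cells of a type and less RNA per cell cannot be told apart, so markers of other cells were read beside the subunits. Summed macrophage markers were 340, 318 and 302 FPKM in WT 1 to 3, against 452, 393 and 444 FPKM in NS-DADm 1 to 3. All NS-DADm sums were above all WT sums, as for Tbl1xr1 and Tbl1x. Of 12 macrophage genes, 5 rose, beside 1.79% called higher over all tested genes. All 12 had a positive log2 fold change (median 0.39), beside 49.3% of all tested genes, and none was at 0 in any sample. Some of these calls ended when NS-DADm 1 or 2, or WT 1 or 2, was left out. The part of these cells in the rise of Tbl1xr1 was not tested. Summed mural cell markers were 377 to 402 FPKM in WT and 306 to 344 FPKM in NS-DADm, also without overlap but lower, and summed erythroid markers were 6000, 5210 and 5050 FPKM in WT 1 to 3, against 4990, 2560 and 3570 FPKM in NS-DADm 1 to 3. The erythroid sums were likewise lower in every NS-DADm sample, with 0 of 4 genes called by edgeR and 0 of 4 log2 fold changes positive (median -0.49). The part of mural and erythroid cells was not tested. Fibroblast, endothelial, adipocyte, epicardial, lymphocyte and Schwann cell sums overlapped between groups. The 6 tested adipocyte genes all had positive log2 fold changes (median 1.59), with 0 called. So did the 3 tested epicardial genes (median 2.03) and the 3 tested lymphocyte genes (median 0.28), also with 0 called. The epicardial sum was 15.8 FPKM in NS-DADm 3. Of 4 tested Schwann cell genes, 1 was positive (median -0.38). The part of these cells was not tested.

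The genes most like each subunit were found by Pearson's r of log2 counts scaled to library size over the 6 samples, among 11134 or 11135 genes. For Tbl1xr1 they were Cfp (0.997), Syt12 (0.996) and Stat3 (0.995). Cfp, which encodes the complement factor properdin, was at 5.23 ± 0.558 FPKM in WT and 12.8 ± 1.34 FPKM in NS-DADm. Those most like Tbl1x were Actn1 (0.992), Laptm5 (0.986) and Rpl22l1 (0.985), those most like Ncor1 were Nt5dc3 (0.999), Gfod1 and Man1a, and those most like Hdac3 were Coro1b, Fscn1 and Gid8 (0.973 to 0.974). Gps2 was followed by Sil1 (0.993), Fyn and Slc9a2, and Coro2a by Slc4a1ap (0.987), Ppp1r13b and Cyp2u1. An r of at least 0.95 was reached by 124 genes for Tbl1xr1 and 60 for Tbl1x, and by 16 to 27 for the other subunits. The samples form 2 groups that also differ in depth, so these values are descriptions only. Any gene that differs between the groups correlates with Tbl1xr1.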

How the data were processed

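Total RNA of 6 myocardium samples was sequenced. For each sample the authors deposited gene and transcript tables. They hold an expected count, the reads assigned to the feature, and FPKM, that count scaled by length and library size, both as the authors made them and per the file headers. Alignment was with HISAT (no version), by the submitters' processing notes. The estimator, the build and the annotation release were not given in the sources used here. Genes absent from the file of a sample were set to 0, and 1 row without a symbol (at most 0.00032% of counts) was left out.

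Expected counts were rounded, filtered with filterByExpr, scaled by TMM and compared, NS-DADm over WT, by the quasi-likelihood test of edgeR 4.0.16 (R 4.3.3) without a replicate block. Benjamini-Hochberg adjustment was over all 13130 genes or 17497 transcripts, with 0.05 as the threshold, and transcript usage was tested with edgeR's diffSpliceDGE. Intervals are at the 95% level, from the standard error. Permutation tests were exact (scipy 1.17.1). Scripts were tested on simulated data. No 2 libraries agreed within sampling noise (chi-square per gene 3.49 to 17.9). The total counts per sample, in the opening of the text, set the precision.

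The subunits, lists and alternatives were chosen with earlier results of these data known. Named genes are every subunit and listed transcript, the called genes (up to 4) and the most abundant gene of each list, the 3 genes most correlated with each subunit (mean FPKM of at least 1, no Gm or Rik names) and called neighbours. Ppara, Ppard, Hdac9 and Bcl6 come from that rule. Hdac4, Ppargc1a, Ip6k3 and Ppip5k1 do not, and were added after the results had been seen. Another gene that the rule picks is not reported here. Coordinates and promoters are RefSeq's on GRCm38.p6, and the gene order is that of the RefSeq table, to which 17848 listed genes matched. Alternatives tried were DESeq2 size factors, DESeq2's Wald test (DESeq2 1.42.0), limma (3.58.1) on log2(FPKM + 1) and log2(FPKM + 0.1), other filters, a replicate block and leaving out each sample. An atrial score as covariate, thinning of libraries to the smallest total count and, added after the data were seen, separate comparisons in atrial-low and atrial-high libraries were also run. Other subunits of the complex were not analysed here.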

Additional observations from a re-analysis of the deposited data

How the results depend on the processing

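Tbl1xr1 was called in all 15 alternatives that give an adjusted p, at a log2 fold change of 0.76 to 0.89 over 17 alternatives. Tbl1x, Ncor1, Gps2, Hdac3 and Coro2a were called in none. Tbl1x had adjusted p-values of 0.0965 to 0.35. Hdac3 turned to -0.0316 within libraries of low atrial transcripts and ranged from -0.0154 to 0.0819 with 1 sample left out, and Coro2a turned to -0.133 within libraries of high atrial transcripts. Coro2a could not be fitted with a minimum mean FPKM of 1, which removed it.

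The count of called genes was 239 with limma on log2(FPKM + 1), 232 with limma on log2(FPKM + 0.1), 895 with the replicate block and 117 to 382 with 1 sample left out, against 420. With the replicate block 2 transcripts and 2 genes with a usage change were called, and with 1 sample left out 3 to 7 and 4 to 19, against 17 and 21. The cause was not tested. Same-numbered samples correlated at -0.03, 0.38 and 0.44 in their deviations from the group means, and WT 1 correlated best with NS-DADm 2 (0.19), so the numbers were not taken as pairs. The block changed the call of no subunit gene. With 1 sample left out, the transcript log2 fold change ranged from -0.0733 to 0.12 for NM_011308 of Ncor1 and from -0.0121 to 0.0816 for NM_010411 of Hdac3. The relative usage ranged from -0.0144 to 0.0724 for NM_001252313 and from -0.133 to 0.00735 for NM_011308.

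3 samples a group, counts of 11 to 28 for Coro2a and unstated pairing limit these results.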

Other observations

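The genes next to each subunit along its chromosome were read from the 10 nearest tested genes on each side. No gene among these 20 neighbours was called by edgeR for Ncor1, Hdac3, Tbl1xr1 or Coro2a. At an unadjusted p under 0.05 there were 2 each for Ncor1 and Hdac3, 4 for Tbl1xr1 and 3 for Coro2a, and DESeq2 called 0, 0, 1 and 1. Tbl1x and Gps2 each had 1 neighbour of 20 called by edgeR, beside 3.20% of all tested genes. They had 4 and 1 neighbours at an unadjusted p under 0.05, and DESeq2 called 1 each. Over all genes, 2370 of 13130 had an unadjusted p under 0.05, and DESeq2 called 539. Of the neighbours of Tbl1x, Tmem47, a membrane protein of cell junctions, fell from 9.93 ± 0.372 FPKM in WT to 6.59 ± 0.293 FPKM in NS-DADm (log2 fold change -0.57, adjusted p = 0.00541). Its direction was opposite to the sign of Tbl1x. Of the neighbours of Gps2, Ybx2 fell from 15.4 ± 1.05 to 10.5 ± 1.03 FPKM (log2 fold change -0.53, adjusted p = 0.0236). The call of Ybx2 was lost when NS-DADm 2 or 3, or WT 1 or 2, was left out (adjusted p at most 0.117), as well as under the atrial covariate (0.0512). With 20 genes on each side, 2 of 40 neighbours of Ncor1 (Map2k3 and Pmp22) and 2 of 40 of Gps2 (Atp1b2 and Ybx2) were called. For Tbl1x it was 1 of 40 (Tmem47), and for Hdac3, Tbl1xr1 and Coro2a 0 of 40. These counts stand beside the 3.20% called over all tested genes.

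Ncor1 and Gps2 each overlap another tested gene. Ttc19, which overlaps Ncor1, had a log2 fold change of -0.04 (adjusted p = 0.854). Eif5a, which overlaps Gps2, was far more abundant than Gps2, with a log2 fold change of 0.04 (adjusted p = 0.777). Tbl1xr1 overlaps a pseudogene, Gm5842, and Tbl1x and Coro2a overlap the long noncoding RNA genes Gm52447 and Gm16731. None of these was listed in any sample, so their levels are not known here.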
